A study of Mus musculus with 6 samples.

Results

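Muscleblind proteins and a set of other regulators of alternative splicing were followed by 10 genes, Mbnl1, Mbnl2, Mbnl3, Celf1, Celf2, Rbfox2, Esrp1, Esrp2, Ptbp1 and Nova2. The genes were chosen by name, with the difference of Mbnl3 between the groups already known, and the probe set of each gene was selected on the highest mean over the 6 arrays. All 10 were measured, among 19938 genes with a probe set of their own. The cells were mouse lung endothelial cells of C57BL/6 background, carrying as a stable transfectant either full-length mouse L1CAM in the vector pcDNA3.1/Hygro(-) (3 arrays) or that vector empty (3 arrays), so both groups carry the vector. L1CAM is an adhesion molecule of the immunoglobulin superfamily. Cells had grown for 4 days to confluence in 20% serum. Per the labels the replicates came from independent experiments, with no word on whether a transfectant was a pool or a clone, so the spread between arrays may not include separate transfections.

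Alternative splicing joins different exons of a gene into different messages, and proteins that bind the pre-mRNA decide which exons are kept. Muscleblind proteins bind RNA through zinc fingers and favour the exon choices of adult muscle, heart and brain; their capture by expanded CUG repeats is the known basis of myotonic dystrophy. CELF proteins oppose them on many shared exons. RBFOX2, PTBP1, the epithelial ESRP proteins and NOVA2, known from neurons and also from endothelium, act on other sets of exons.

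L1cam read 10.49, 10.60 and 10.73 on the L1CAM arrays, against 6.50, 6.77 and 7.31 on the control arrays (RMA expression values, log2 scale). L1CAM replicate 1 stood apart from the other L1CAM arrays, with correlations across genes of 0.9948 and 0.9951 against 0.9986 between the other two. Its correlations with the control arrays were 0.9952, 0.9935 and 0.9938, so it lay as close to control replicate 1 as to its own group, and results are also given without it where that matters. Of 12 endothelial markers, 12 lay above the median of all probe sets on all 6 arrays, among them Cdh5 and Pecam1. Of these 11 had the lower mean in L1CAM cells, with a list median of -0.08, against 0.02 over all genes. Over the 11 markers other than Cldn5 the mean, relative to the control mean, was -0.09 to -0.06 on the L1CAM arrays. On the control arrays it was -0.01 to 0.01. Limma called 1 marker (2 at an unadjusted p under 0.05), the tight junction gene Cldn5 (-0.22, adjusted p = 0.0446). Cldn5 read 6.79 to 7.13, little above the array medians. Its call was lost when any array other than L1CAM replicate 1 was left out, and with the replicate number as a block. Of 12 epithelial markers, 9 lay below the median on every array, Cdh1 and Epcam among them, and 0 were called by limma or by an ordinary linear model (2 at an unadjusted p under 0.05 in limma). Over all genes limma called 15.0% and the ordinary linear model 2.91%, so 0 calls in a short list carry little weight. Muscle markers had 0 of 10 called (0 at an unadjusted p under 0.05) and leukocyte markers 0 of 7 (0 at an unadjusted p under 0.05). Smooth muscle and fibroblast markers had 1 of 10 called, and neuronal markers 1 of 10 (2 at an unadjusted p under 0.05 in each list). The first was Cnn1, 0.23 higher but below the array median on all 6 arrays, and its call was lost with 5 of the 6 arrays when each was left out. The other was Stmn2 (2.67 higher), whose control arrays read below the array medians, so this rise is not exact. Nefl, the only neuronal marker above the medians on all 6 arrays, differed by -0.25 and was not called (limma adjusted p = 0.16). The mean of the neuronal list, relative to the control mean, was 0.28 to 0.29 on the L1CAM arrays, against -0.01 to 0.01 on the control arrays. Over the 9 neuronal markers other than Stmn2 it was -0.01 to 0.06 on the L1CAM arrays, against -0.04 to 0.03 on the control arrays, and 8 of the 10 markers lay below the median on every array. In such bulk samples fewer cells of a type and less RNA per cell cannot be told apart.

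The start regions of the 3 muscleblind genes are shown because the values below differ between these paralogs. The windows reach from 250 bases before to 50 bases after a gene's start, from RefSeq on GRCm38.p6, 5′ to 3′ along the gene, with each CG dinucleotide in capitals. The table held windows for 7 of the 10 genes. The windows lie at chrX:51205941-51206240 (minus strand) for Mbnl3, chr14:120275419-120275718 (plus strand) for Mbnl2, and chr3:60472580-60472879 and chr3:60500929-60501228 (plus strand) for the first and second start of Mbnl1.
Mbnl3: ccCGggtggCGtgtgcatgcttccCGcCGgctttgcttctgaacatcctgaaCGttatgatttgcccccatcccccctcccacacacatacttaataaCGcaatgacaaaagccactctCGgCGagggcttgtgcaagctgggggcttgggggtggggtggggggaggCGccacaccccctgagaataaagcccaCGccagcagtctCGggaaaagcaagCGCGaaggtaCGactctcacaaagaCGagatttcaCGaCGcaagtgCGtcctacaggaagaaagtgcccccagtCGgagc
Mbnl2: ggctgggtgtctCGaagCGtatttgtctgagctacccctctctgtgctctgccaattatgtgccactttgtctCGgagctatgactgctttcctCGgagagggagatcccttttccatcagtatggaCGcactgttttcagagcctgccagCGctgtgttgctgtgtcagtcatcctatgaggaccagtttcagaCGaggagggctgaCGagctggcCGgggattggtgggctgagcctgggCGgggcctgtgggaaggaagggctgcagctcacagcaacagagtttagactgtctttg
Mbnl1, first start: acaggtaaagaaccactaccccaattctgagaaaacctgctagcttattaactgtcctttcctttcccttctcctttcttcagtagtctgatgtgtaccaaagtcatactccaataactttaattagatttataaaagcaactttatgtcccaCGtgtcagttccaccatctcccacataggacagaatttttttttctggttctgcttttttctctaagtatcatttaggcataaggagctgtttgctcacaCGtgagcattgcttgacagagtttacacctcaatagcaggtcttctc
Mbnl1, second start: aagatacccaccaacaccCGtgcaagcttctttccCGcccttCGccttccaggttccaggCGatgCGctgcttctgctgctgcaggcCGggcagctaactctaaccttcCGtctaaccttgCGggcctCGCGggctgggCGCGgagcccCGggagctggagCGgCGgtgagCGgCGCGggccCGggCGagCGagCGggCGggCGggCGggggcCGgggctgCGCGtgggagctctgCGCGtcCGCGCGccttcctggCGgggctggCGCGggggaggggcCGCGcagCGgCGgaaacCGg

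The Mbnl3 window held 19 CG dinucleotides, and 71.9% of all 32851 windows of that length held fewer. Mbnl2 had 10, the first Mbnl1 window 2 and the second 41, against a median of 7 over all windows. The letters TATAAA, searched on both strands, occurred in 13.6% of all windows. The first Mbnl1 window held 2 matches, 1 on each strand, which overlap in a single stretch. The letters CCAAT, likewise on both strands, occurred in 37.4% of all windows, 2 times in the Mbnl2 window and 2 times in the first Mbnl1 window. Neither string was found in the Mbnl3 window or in the second Mbnl1 window. These matches describe the letters of the windows and say nothing of factors that bind there.

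Mbnl3 was the member with by far the largest difference. MBNL3 is the muscleblind protein best known from proliferating muscle precursors and placenta, where it is reported to hold back muscle differentiation. Mbnl3, on chromosome X, read 6.52, 6.32 and 5.97 on the L1CAM arrays, against 8.77, 9.28 and 9.28 on the control arrays. Every L1CAM array lay more than 2 log2 units below every control array, with L1CAM replicate 1 and control replicate 1 nearest to each other. The means were 6.27 ± 0.28 in L1CAM cells and 9.11 ± 0.30 in control cells (SD, n = 3 each), and the difference was -2.84 (SE 0.18), or 7.18-fold lower in L1CAM cells. It was the fifth largest fall among all genes, after 4 others. The L1CAM arrays all read below the medians of the arrays (6.55 to 6.58), so a signal over background was not shown for Mbnl3 in L1CAM cells, and the fold is not exact. Because the gene was chosen for this difference, its size is a description.

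The other muscleblind genes differed little between the groups, in opposite directions. Mbnl1, the muscleblind protein that dominates in adult muscle, read 12.52, 12.59 and 12.57 on the L1CAM arrays, against 12.43, 12.37 and 12.40 on the control arrays. Its arrays did not overlap, and the difference was 0.16 (SE 0.05), which limma did not call. Without L1CAM replicate 1 it was called, at a difference of 0.18. Mbnl2, which acts mainly in brain, read 12.21, 12.22 and 12.20 on the L1CAM arrays, against 12.32, 12.31 and 12.28 on the control arrays. Its arrays did not overlap either, with a difference of -0.09 (SE 0.05) that was not called. On the log2 scale the difference of Mbnl3 was thus -2.84, against 0.16 and -0.09 for its paralogs, each measured by 1 probe set. The plot of the members by array shows these values.

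**Figure D1:**
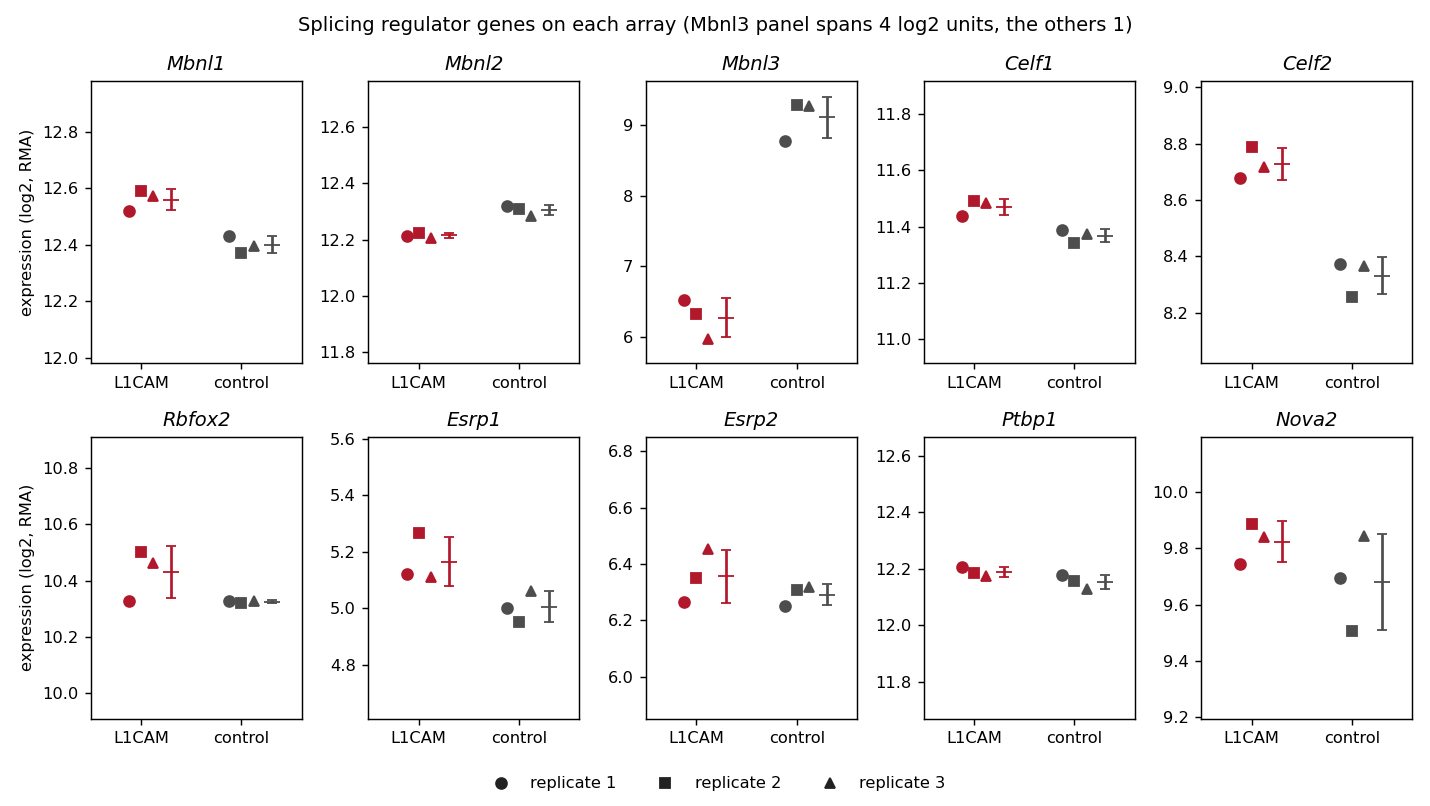
Expression (log2, RMA) of the 10 splicing regulator genes on each array, L1CAM arrays in red and control arrays in grey, with a symbol for each replicate and mean ± SD (n = 3) beside them. The Mbnl3 panel spans 4 log2 units and the others 1. Mbnl3 reads 5.97 to 6.52 on the L1CAM arrays and 8.77 to 9.28 on the control arrays, and the other genes differ by at most 0.40 in their means.

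Of the CELF genes, Celf2 was higher in L1CAM cells. CELF proteins bind GU-rich RNA, and act on splicing in the nucleus and on message decay in the cytoplasm. Celf2 read 8.68, 8.79 and 8.72 on the L1CAM arrays, against 8.37, 8.26 and 8.37 on the control arrays. No L1CAM array overlapped a control array, and the difference was 0.40 (SE 0.06), or 1.32-fold higher. It was called whichever array was left out. A second, dim Celf2 probe set, not kept under the rule, read 3.76, 4.02 and 4.21 in L1CAM cells, against 3.87, 3.94 and 3.56 in control cells, and its groups overlapped.

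Celf1, the CELF protein raised in myotonic dystrophy muscle, read 11.44, 11.49 and 11.48 on the L1CAM arrays, against 11.39, 11.34 and 11.37 on the control arrays. The groups did not overlap, with a difference of 0.10 (SE 0.05) that was not called. Its second probe set read 8.90, 9.09 and 9.05 in L1CAM cells, against 8.95, 8.84 and 8.80 in control cells. There L1CAM replicate 1 lay within the control range, and the difference was 0.15.

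The regulators of other exon sets moved by small amounts. Rbfox2, which acts on exons of cytoskeletal and adhesion genes, read 10.33, 10.50 and 10.46 on the L1CAM arrays, against 10.33, 10.32 and 10.33 on the control arrays. L1CAM replicate 1 matched the control level and replicates 2 and 3 lay above it, with a difference of 0.11 (SE 0.06). Without L1CAM replicate 1 the difference was 0.16 and was still not called. Ptbp1, a broad repressor of exons that keeps neuronal splicing off outside neurons, read 12.21, 12.18 and 12.17 on the L1CAM arrays, against 12.18, 12.15 and 12.13 on the control arrays. Its groups overlapped, with a difference of 0.03 (SE 0.05). A second Ptbp1 probe set gave 11.94, 11.93 and 11.96 in L1CAM cells, against 11.84, 11.78 and 11.92 in control cells, a difference of 0.09 with no overlap. Nova2, a regulator of axon guidance and vessel lumen formation, read 9.74, 9.89 and 9.84 on the L1CAM arrays, against 9.69, 9.50 and 9.84 on the control arrays. These groups overlapped, with control replicate 3 at the level of the L1CAM arrays, and the difference was 0.14 (SE 0.09).

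Both ESRP genes were dim. ESRP proteins set the epithelial forms of receptors and adhesion molecules. Esrp1 read 5.11 to 5.27 on the L1CAM arrays, against 4.95 to 5.06 on the control arrays, with no overlap. Esrp2 read 6.26, 6.35 and 6.45 on the L1CAM arrays, against 6.25, 6.31 and 6.32 on the control arrays, which overlapped. All these values lay below the array medians, so neither gene was shown to be above background in either group. The differences were 0.16 (SE 0.06) for Esrp1 and 0.06 (SE 0.06) for Esrp2.

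In all, limma called 2 of the 10 members, Celf2 as higher and Mbnl3 as lower in L1CAM cells. Over all genes tested 15.0% were called, 6.85% as higher and 8.19% as lower. The groups did not overlap in 6 of the 10 members, against 34.6% of all genes. As the members were chosen with this comparison known, nothing is read from these counts. The 8 members that were not called differed by -0.09 to 0.16, 7 of them with the higher mean in L1CAM cells. Nothing is read from that count either. The median difference was 0.10 over the members and 0.02 over all genes, and the median absolute difference 0.12 over the members and 0.10 over all genes. A larger absolute difference than that of Celf2 was seen in 9.61% of all genes, and one larger than that of Mbnl1 in 31.1%.

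Calls in the wider splicing machinery were counted in the same way. Lists of the members' paralogs, other regulators, SR proteins, hnRNP proteins, splicing kinases and core spliceosome genes held 113 genes, of which 104 were measured. Of these 3 rose and 6 fell in L1CAM cells (8.65% called, against 15.0% of all genes), with a median difference of 0.0044 (0.02 over all genes) and a median absolute difference of 0.06 (0.10 over all genes). These lists were drawn up with earlier results of these data known, so nothing is read from their counts. Without L1CAM replicate 1, 13 were called, beside 24.8% of all genes, and 3 to 6 when any other array was left out, beside 5.18% to 9.07% of all genes.

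Among 29 other splicing regulators 1 rose and 4 fell (17.2% called, against 15.0% of all genes). Khdrbs3, a STAR family protein (SLM2) that sets exon choice in neurexin genes, read 6.75, 7.58 and 7.36 on the L1CAM arrays, against 6.08, 6.13 and 6.00 on the control arrays. L1CAM replicate 1 lay lowest of its group but above all controls, and the rise was 1.16 (SE 0.19, limma adjusted p = 0.00777). The control arrays read below the array medians, so this rise is not exact. Tia1, a binder of U-rich sequence that recruits U1 snRNP and also forms stress granules, read 9.12, 9.05 and 9.15 in L1CAM cells, against 9.71, 9.68 and 9.66 in control cells. It fell by 0.58 (SE 0.05, limma adjusted p = 0.000934), with a gap between the groups several times their spread, while its relative Tial1 differed by 0.02 (limma adjusted p = 0.85). Both Khdrbs3 and Tia1 were called whichever array was left out. With an ordinary linear model Tia1 was still called (adjusted p = 0.0272) and Khdrbs3 was not (adjusted p = 0.0977). Rbpms2, an RNA-binding protein of smooth muscle precursors, fell by 0.38 (limma adjusted p = 0.0347). Rbm4b fell by 0.32 (limma adjusted p = 0.0156), and its near-identical paralog Rbm4 had no probe set of its own, so its probes may read both. Rbm38, a p53-induced RNA-binding protein, fell by 0.22 (limma adjusted p = 0.0475). Rbpms2 and Rbm38 were called in the fit without L1CAM replicate 1 but in none without another array (limma adjusted p = 0.0504 to 0.124 and 0.0949 to 0.154). Rbm4b lost its call without L1CAM replicate 3, control replicate 2 or control replicate 3 (limma adjusted p = 0.0612 to 0.0665).

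**Figure D2:**
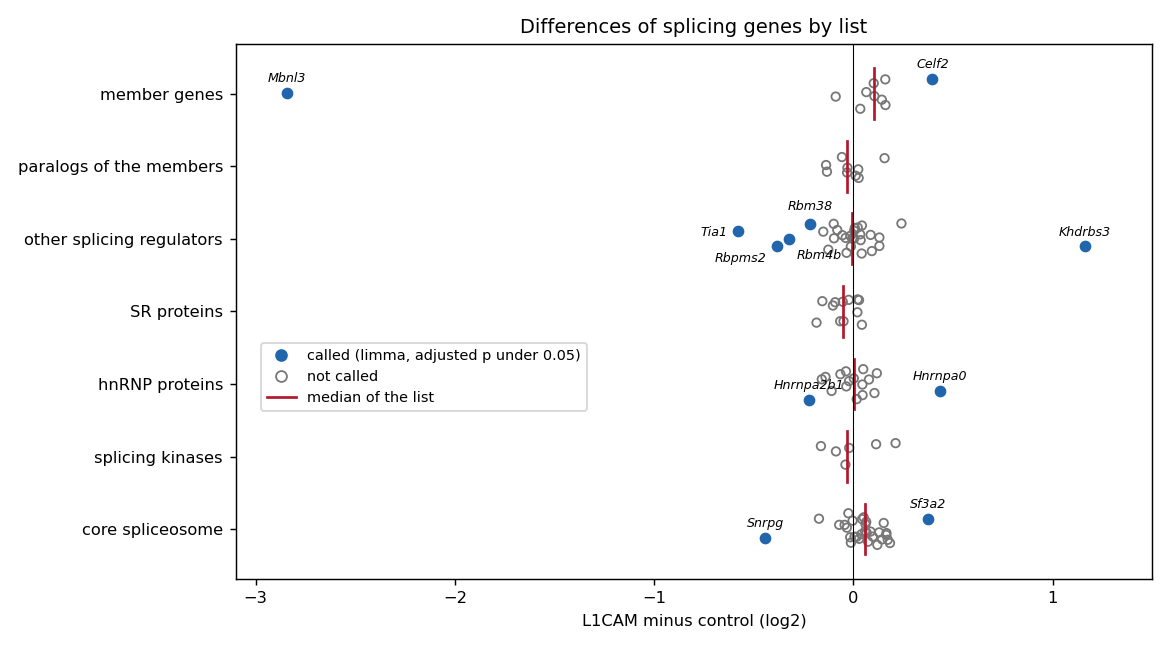
Differences between L1CAM and control cells (log2, L1CAM minus control) for the 10 members and the 6 lists of splicing genes. Each point is a gene, filled and named where limma called it, and red lines mark list medians. Mbnl3 stands alone at -2.84, Khdrbs3 lies at 1.16, and the other genes lie between -0.58 and 0.43.

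Paralogs of the members had 0 of 9 genes called by limma (0 at an unadjusted p under 0.05, and 0 with an ordinary linear model). The smallest p-values were those of Rbfox3, 0.16 higher (limma adjusted p = 0.20), and Celf5, 0.14 lower in L1CAM cells (limma adjusted p = 0.23). Ptbp2, the neuronal relative of Ptbp1, differed by -0.03 and Ptbp3 by -0.06. SR proteins, which bind exon enhancers, had 0 of 12 called (0 at an unadjusted p under 0.05, and 0 with an ordinary linear model), with Srsf5 at -0.19 (limma adjusted p = 0.21) and Srsf11 at -0.10 (limma adjusted p = 0.26). Splicing kinases, which phosphorylate SR proteins, had 0 of 6 called (1 at an unadjusted p under 0.05, and 0 with an ordinary linear model). Clk4 lay 0.21 higher (limma adjusted p = 0.14) and was called only in the fit without control replicate 1 among those that left out an array (0.30, limma adjusted p = 0.0399), and Clk3 lay 0.11 higher (limma adjusted p = 0.26). For these short lists 0 calls carry little weight, as limma called 15.0% of all genes and the ordinary linear model 2.91%.

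Of 17 hnRNP genes, whose proteins coat nascent RNA, 1 rose and 1 fell (11.8% called, against 15.0% of all genes). Hnrnpa0 rose by 0.43 (SE 0.09, limma adjusted p = 0.0182) and Hnrnpa2b1 fell by 0.22 (SE 0.06, limma adjusted p = 0.0406). Each was called without L1CAM replicate 1 but in none of the fits without another array (limma adjusted p = 0.0546 to 0.0799 for Hnrnpa0 and 0.0678 to 0.149 for Hnrnpa2b1). Of 31 core spliceosome genes 1 rose and 1 fell (6.45% called, against 15.0% of all genes). Snrpg, a Sm ring protein of the snRNPs, read 10.61, 10.55 and 10.49 on the L1CAM arrays, against 10.98, 11.02 and 10.98 on the control arrays, with no overlap, and fell by 0.44 (SE 0.06, limma adjusted p = 0.00318). Sf3a2, a subunit of the U2 snRNP, rose by 0.38 (SE 0.07, limma adjusted p = 0.0120). Its call was lost without control replicate 2 or 3 (limma adjusted p = 0.0573 and 0.0594), and that of Snrpg was kept whichever array was left out. Without L1CAM replicate 1, 6 of the 31 spliceosome genes were called, beside 24.8% of all genes.

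Genes whose exons muscleblind and ESRP proteins are known to regulate were examined as whole-gene levels. A single probe set sums over a gene, so these values say nothing of exon choice. Of 19 measured muscleblind targets, Mbnl1 and Mbnl2 among them, 1 rose and 1 fell (10.5% called, against 15.0% of all genes). Nfix, a transcription factor with a muscleblind-regulated exon, rose by 0.64 (SE 0.11, limma adjusted p = 0.00845) and was called whichever array was left out. It was not called with an ordinary linear model (adjusted p = 0.0905). Fn1, fibronectin, fell by 0.49 (SE 0.11, limma adjusted p = 0.0277) and was called without L1CAM replicate 1 but in none of the fits without another array (limma adjusted p = 0.0640 to 0.104). Of 6 ESRP targets 2 rose and 0 fell, where 6.85% of all genes were called as higher, and nothing is read from so few genes. Cd44, the hyaluronan receptor, rose by 1.11 (SE 0.12, limma adjusted p = 0.00141). Enah, an actin regulator, read 8.57, 8.65 and 8.70 in L1CAM cells, against 7.92, 7.94 and 7.89 in control cells, and rose by 0.72 (SE 0.06, limma adjusted p = 0.000508). Both were called whichever array was left out. With an ordinary linear model Enah was still called (adjusted p = 0.0251) and Cd44 was not (adjusted p = 0.0512). The median difference was -0.0071 over the muscleblind targets and 0.0037 over the ESRP targets.

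Mbnl3 and the endogenous L1cam gene lie on chromosome X, with 122 tested genes between them in the RefSeq order. Where the transfected copy integrated is not given in the labels. Of the 10 nearest tested neighbours of Mbnl3, 5 on each side, 0 were called by limma (1 at an unadjusted p under 0.05, and 0 with an ordinary linear model), and their differences ran from -0.33 to 0.19. On one side Rap2c, a small GTPase, read 8.76, 8.97 and 8.91 on the L1CAM arrays, against 8.73, 8.64 and 8.69 on the control arrays. Its arrays did not overlap, and it lay 0.19 higher (SE 0.07, limma adjusted p = 0.10). It was called without L1CAM replicate 1 (limma adjusted p = 0.0148). On the other side Hs6st2, a heparan sulfate sulfotransferase, differed by -0.33 (SE 0.28, limma adjusted p = 0.51) and its groups overlapped. The long noncoding RNA gene Firre differed by -0.10 (limma adjusted p = 0.41). Apart from Rap2c and Firre, the 8 other neighbours, Olfr1324, Stk26, Frmd7, Hs6st2, Usp26, 1700080O16Rik, Gpc4 and Gpc3, lay below the array medians on all 6 arrays, so a fall there is limited by signal over background. Over chromosome X, 104 of 739 genes were called (14.1%, against 15.0% of all genes). The ordinary linear model called 2.91% of all genes, so its 0 calls among 10 neighbours carry little weight.

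**Figure D3:**
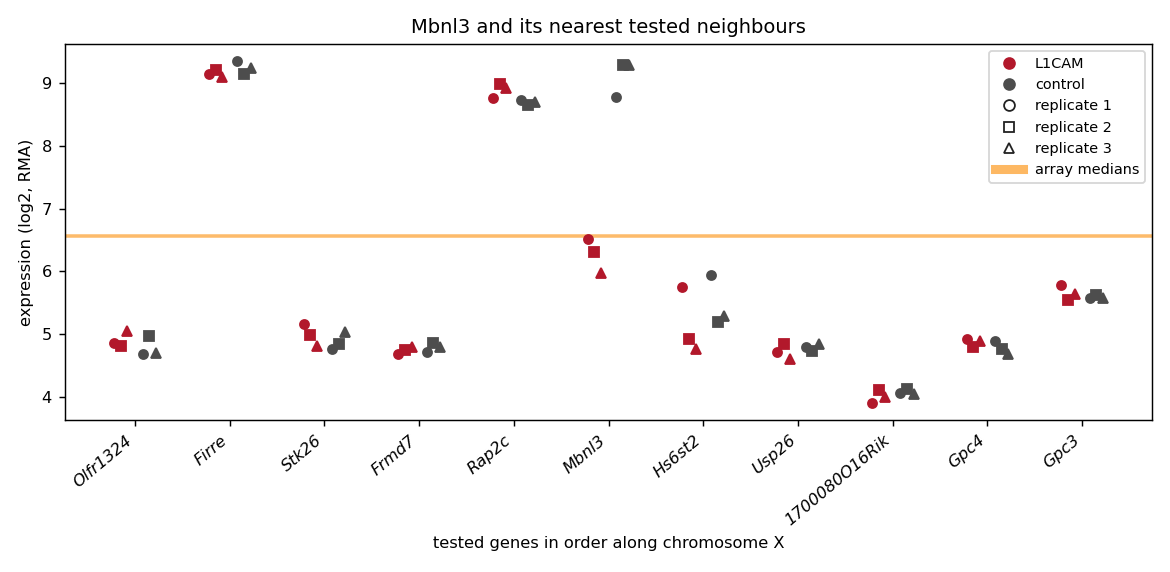
Expression (log2, RMA) of Mbnl3 and of the 5 nearest tested genes on each side, in their order along chromosome X, for each L1CAM (red) and control (grey) array, with a symbol for each replicate. The orange band marks the medians of the 6 arrays (6.55 to 6.58). Mbnl3 reads 5.97 to 6.52 on the L1CAM arrays and 8.77 to 9.28 on the control arrays, and 8 of its 10 neighbours lie below the band on all arrays.

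The genes whose pattern over the 6 arrays came nearest to that of Mbnl3 were all strongly lower in L1CAM cells. Likeness was the root mean square distance on the log2 scale between the 6 values of 2 genes, each minus its mean over the control arrays. Ndn, an imprinted growth suppressor on chromosome 7, was nearest at 0.11, and read 6.13, 5.65 and 5.51 on the L1CAM arrays, against 8.34, 8.83 and 8.94 on the control arrays. In both Ndn and Mbnl3, control replicate 1 lay lowest among the controls and L1CAM replicate 1 highest among the L1CAM arrays. Among the genes that follow, Il13ra2 and Mdga2 showed this order too, and Aplnr and Il13ra1 did not. Aplnr, the apelin receptor on chromosome 2, followed at 0.27, and the interleukin-13 receptor genes Il13ra2 and Il13ra1, on chromosome X, at 0.38 and 0.41. Mdga2, an immunoglobulin superfamily gene on chromosome 12, was the fifth at 0.43. A distance over 6 arrays rests mostly on the shared difference between the groups. The genes were picked on these same 6 values, so a shared order of arrays within a group is no separate result. Over all genes, too, L1CAM replicate 1 lay closest of its group to the control arrays.

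**Figure D4:**
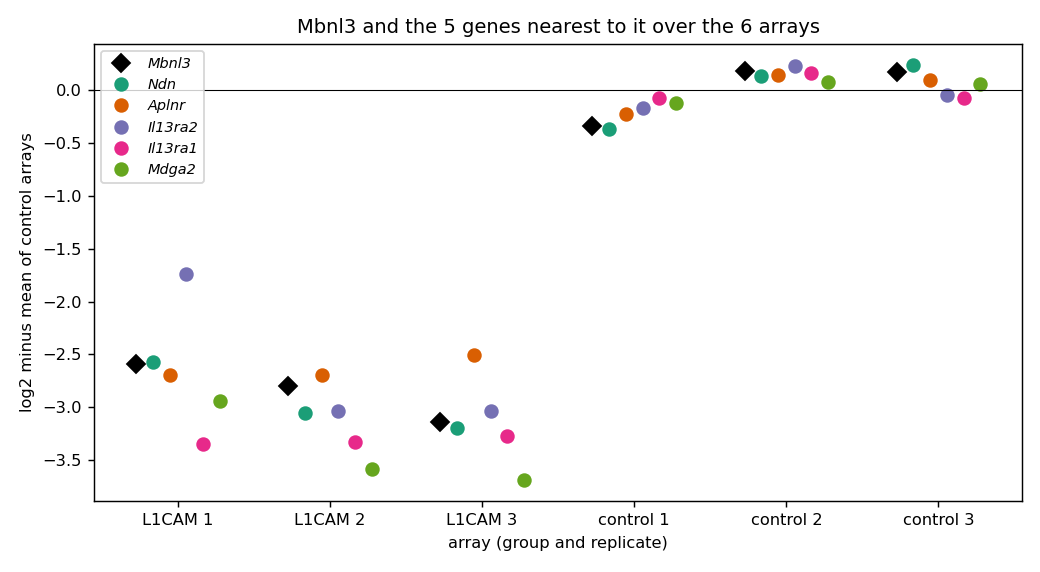
Expression of Mbnl3 (black diamonds) and the 5 genes nearest to it, each minus its mean over the control arrays (log2), for each array. The L1CAM arrays of Mbnl3 and Ndn lie close together, while Il13ra2 differs on L1CAM replicate 1, where it read 8.15 against 6.85 on each of replicates 2 and 3.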

How the data were processed

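Biotin-labelled total RNA was hybridised to 6 Affymetrix arrays. Per the submitters' processing notes, the authors used RMA and Expression Console 1.1, and the deposited table holds log2 values. Further settings and the array's genome build were not given in the sources used. Of 35512 probe sets, 21789 had exactly 1 gene symbol, 1621 several and 12102 none listed. Symbols came from the platform annotation, checked through Entrez identifiers against RefSeq (GRCm38.p6), which changed 0. The brightest probe set per gene left 19938 genes. L1CAM and control arrays were compared with lmFit and eBayes of limma 3.58.1 (R 4.3.3), two-sided, with Benjamini-Hochberg adjustment over all genes and a threshold of 0.05. SE is the moderated standard error. The members and all gene lists were chosen with earlier results of these data known. No adjusted p is given for the 10 members, whose choice used this comparison; those of list genes are adjusted over all genes and are no independent support. No detection calls were used here, so a probe set below the array median is called dim. The number of arrays limits the precision.

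Named genes were the members, up to 4 called genes per list and direction (else the 2 with the smallest p), the 5 genes nearest to Mbnl3 in pattern, 5 tested neighbours on each side, L1cam, Cdh5, Pecam1, Cdh1 and Epcam. Stmn2, Nefl, Cnn1, Cldn5, Tial1, Ptbp2 and Ptbp3 were added after their values were seen. A comparison of muscleblind proteins was planned, but protein sequences were not used here. The fit was tested on simulated data. Promoter counts and plots used Python 3.11.15, pandas 2.3.3, numpy 2.4.6 and matplotlib 3.10.9.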

Additional observations from a re-analysis of the deposited data

How the results depend on the processing

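Differences were refitted after a second quantile normalization, with array medians brought to 0, without dim probe sets, with probe sets averaged per gene, with an intensity trend in the variance prior, by an ordinary linear model, with array weights, with the replicate number as a block, and without each array in turn. Mbnl3 stayed lower and called under all 14, with differences of -3.01 to -2.69, and 0 of the 30 genes followed changed direction. As Mbnl3 was chosen for this difference, its calls in these refits are no independent support. The filter on dim probe sets kept Mbnl3 although only its control arrays read over the medians. That refit therefore does not test whether the low signal of Mbnl3 in L1CAM cells matters. Under each alternative 2 or 3 members were called, and the third was Mbnl1, called with the filter on dim probe sets, the intensity trend, array weights and without L1CAM replicate 1. The dim filter removed Esrp1, Esrp2 and Rbfox3. An ordinary linear model called 581 of all genes (2.91%) and 2 of the wider splicing genes, and array weights 5191 and 15, against 2999 and 9. The 2 were Tia1 and Snrpg, both on chromosome 6 with close probe set numbers. Whether their falls are linked was not tested. With an array left out, 1033 to 4952 of all genes, 3 to 13 of the wider splicing genes and 0 to 1 of the neighbours of Mbnl3 were called. The 1 neighbour was Rap2c, called without L1CAM replicate 1 and, as 1 of 10, with array weights. Same-numbered arrays did not deviate together (correlations -0.10, -0.10 and -0.03). With the replicate block 2067 of all genes, 2 members and 7 wider splicing genes were called, and Mbnl3 again gave -2.84. The cause of these changes was not tested. Each fit without an array rests on 2 arrays in 1 group. Genes below the array medians, Esrp1, Esrp2 and Mbnl3 in L1CAM cells among them, are limited by signal over background.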
